A study of Mus musculus with 4 samples.

Results

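The genes described here encode the extracellular layer of Wnt signalling: 19 Wnt ligands, 4 R-spondins, 10 Frizzled receptors and 10 secreted antagonists. The 43 members were taken by gene name from the probes of 4 mouse expression arrays. The match by name used no signal, but the members were chosen with earlier results of these data known. They account for 58 of the 41174 probes, and 36 of them were among the 21393 genes that could be tested. The arrays measured CD45-negative cells, the stromal, vascular and lining cells left when leukocytes are removed from a lymph node. With 2 arrays per node, RNA of the gut-draining mesenteric lymph node (mLN) was set against RNA of peripheral lymph node (pLN). All cells came from untreated wild-type C57BL/6NCrl mice, and mLN and pLN were each sampled in experiments 1 and 2. The sources used here give no age, do not say which peripheral nodes were taken, and do not say how many mice made up a sample. The nodes were digested with collagenase and the cells separated with magnetic beads, so each sample is a mixture of cell types, at a stated purity of 97.4% ± 2.0 for mLN and 97.5% ± 2.2 for pLN (mean ± SD as the labels give them). The design text calls the cells stem cells, whereas the series title speaks of stromal cells.

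Wnt proteins are lipid-modified secreted ligands that bind Frizzled receptors on neighbouring cells. With the coreceptors Lrp5 and Lrp6 they stabilise beta-catenin, and with other coreceptors they steer cell polarity and movement. R-spondins bind Lgr receptors and remove the ubiquitin ligases that clear Frizzleds from the cell surface, so they make cells more sensitive to Wnt. Secreted frizzled-related proteins and Wif1 bind Wnts directly, and Dickkopf proteins act on the Lrp coreceptors. In gut and other mucosa, mesenchymal cells are known sources of Wnt2b and of R-spondins for the epithelium beside them.

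Signals are given on a scale on which the 75th percentile of each array is 1000. Each array had 74.0% to 81.1% of its probes well above background, and the lowest such signal was 7.41 to 11, depending on the array. Differences were tested with limma over all genes, with Benjamini-Hochberg adjustment. A gene is called where its adjusted p is below 0.05, which 1.05% of genes tested reached in either direction, 0.776% higher and 0.276% lower in mLN. Values after ± are standard errors of the log2 fold change, mLN minus pLN, with 2 arrays per node. Whether experiments 1 and 2 used separate animals is not stated, and the spread behind each p-value, that between these arrays, may be technical. Leaving out either of the pLN arrays ended all 225 calls of the series, the members' calls below included. Stromal markers were present on every array: Pdpn, which encodes podoplanin, read 1762 and 1426 in mLN and 1477 and 1631 in pLN, and all 9 markers of fibroblastic reticular cells and all 10 of blood and lymphatic endothelium were well above background on all 4 arrays.

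Of the 43 members, 36 were well above background on all 4 arrays, and each of these was tested, so none entered through 1 node alone. The other 7 were Wnt3, Wnt3a, Wnt8a, Wnt8b, Wnt16, Dkk1 and Dkk4. Wnt8b was well above background on 1 array of each node and Dkk1 on 1 mLN array, the other 5 on none. The signals of their probes were 1.57 to 13.2, and no fold is given for them. Among the 36, 3 were called and all 3 were higher in mLN: the ligand gene Wnt2b and the R-spondin genes Rspo1 and Rspo3. That is 8.33% of the members tested, where 0.776% of all genes tested were called higher in mLN. No member was called lower. At an unadjusted p below 0.05 were 16 of the 36 members, beside 3140 of the 21393 genes. In bulk RNA, fewer cells of a type and less RNA per cell cannot be told apart.

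**Figure D1:**
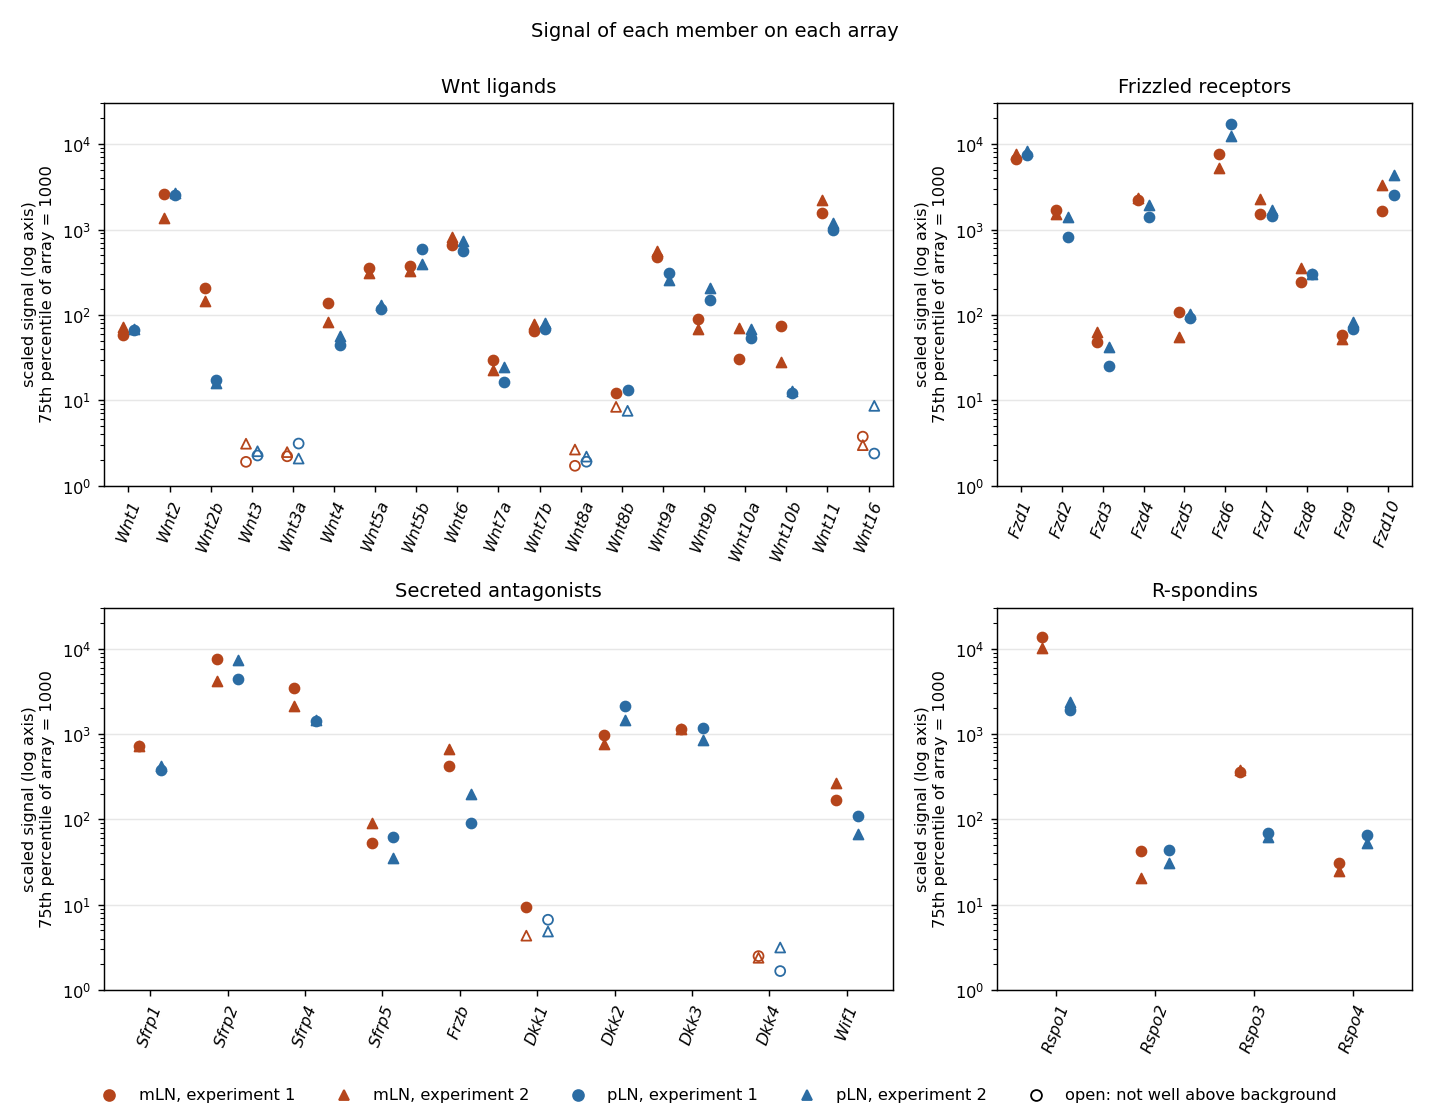
Scaled signal of each of the 43 members on each of the 4 arrays, on a log axis, in panels for ligands, Frizzleds, antagonists and R-spondins. Red is mLN and blue is pLN, circles are experiment 1, triangles are experiment 2, and open symbols are not well above background. The red and blue points stand far apart for Wnt2b, Rspo1 and Rspo3. Heights are to be compared within a gene, not between genes.

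Without a test, 8 members differed at least 2-fold in experiment 1 and again, in the same direction, in experiment 2, where 4.45% of all genes tested did. They are Wnt2b, Wnt5a, Wnt10b, Rspo1, Rspo3 and Frzb with mLN higher (16.7% of the members, 2.75% of all genes) and Fzd6 and Rspo4 with mLN lower (5.56% of the members, 1.71% of all genes). Both mLN arrays lay above both pLN arrays for 15 members (41.7%, against 20.6% of all genes) and below them for 6 members (16.7%, against 25% of all genes). The arrays of the nodes overlapped for the remaining 15. The median log2 fold change was 0.23 over the 36 members and −0.03 over all genes tested. By class it was 0.28 for 14 ligands, 1.07 for 4 R-spondins, −0.11 for 10 Frizzleds and 0.72 for 8 antagonists. The R-spondin median stands between values of opposite sign.

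Among the ligands, Wnt2b read 209 and 145 on the mLN arrays and 17.3 and 15.8 on the pLN arrays. The mLN values are all far above the pLN values, which lie close to the lowest signal that counted as well above background. Wnt2b, a ligand that acts through beta-catenin, was 10.5-fold higher in mLN (log2 fold change 3.39 ± 0.23, limma adjusted p = 0.0161). The ratio was 3.60 in experiment 1 and 3.19 in experiment 2, on the log2 scale. Over 13 alternative settings its value lay between 2.81 and 3.66 and its adjusted p between 0.00671 and 0.689. The call of Wnt2b was lost with a normexp background (0.689), without the filter on dim probes (0.056), without pLN replicate 1 (0.122) and without pLN replicate 2 (0.158). The Wnt2b probe lies on chromosome 3 from 105073969 to 105074028 (minus strand) in mm8, the build of the files.

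A separate probe named only by its accession, AK038400, is described in the files as a Wnt2b product. It lies outside the choice of members by name and was noticed after its values were seen. Its start lies 14914 bases from that of the Wnt2b probe, on the same strand, and it read 48.1 and 54.0 in mLN and 35.3 and 47.4 in pLN. Its difference was 0.32 ± 0.20 (limma adjusted p = 0.585), so the 10.5-fold difference rests on 1 probe.

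Wnt5a, the ligand best known for signalling without beta-catenin, read 356 and 311 in mLN and 118 and 132 in pLN. Its nodes did not overlap, at a fold of 2.66 (1.41 ± 0.16), and it missed the threshold narrowly (limma adjusted p = 0.0512). It was called under 5 of 13 alternative settings, with an adjusted p of 0.0302 to 0.689 over all of them. Wnt10b, a ligand known for its part in fat and bone precursor cells, read 73.3 and 27.9 in mLN and 12.0 and 13.0 in pLN. The mLN arrays differ 2.63-fold from each other, and Wnt10b was not called (1.85 ± 0.49, limma adjusted p = 0.209). Without mLN replicate 2 it was called, at 2.55 and an adjusted p of 0.0496, and without mLN replicate 1 its value was 1.16.

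Wnt4, a ligand of kidney and gonad development, read 139 and 82.7 in mLN and 44.1 and 56.1 in pLN (1.11 ± 0.31, limma adjusted p = 0.226). Wnt9a, a ligand of joint formation, read 472 and 560 in mLN and 314 and 255 in pLN (0.86 ± 0.19, limma adjusted p = 0.151). For both, the mLN arrays lie above the pLN arrays without a call. Wnt9b, a ligand of the developing kidney, gave the ligands' most negative value. It read 88.8 and 68.7 in mLN and 147 and 209 in pLN (−1.17 ± 0.25, limma adjusted p = 0.149), with both mLN arrays below both pLN arrays. With a normexp background its sign turned, to 0.20.

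The other 8 ligands tested, Wnt1, Wnt2, Wnt5b, Wnt6, Wnt7a, Wnt7b, Wnt10a and Wnt11, had log2 fold changes of −0.48 to 0.79 and adjusted p of 0.262 to 0.933. Their arrays overlapped between nodes in 6 of 8. Wnt11, a ligand of cell movement and polarity, was one that did not overlap, at 1568 and 2232 in mLN and 977 and 1205 in pLN. Wnt5b was the other, in the opposite order, at 377 and 326 in mLN and 595 and 399 in pLN. Wnt2, the close paralogue of Wnt2b, read 2590 and 1352 in mLN and 2560 and 2646 in pLN. It is the low second mLN array that sets its value of −0.48 ± 0.34 (limma adjusted p = 0.634, and −0.01 without that array).

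The R-spondins divided by member. Rspo1 read 13603 and 10097 in mLN and 1907 and 2399 in pLN, well above background in both nodes. It was 5.48-fold higher in mLN (2.45 ± 0.23, limma adjusted p = 0.0337), and the nodes did not overlap. Blocking on the experiment gave 0.051. Without mLN replicate 1 it was 0.064 and without mLN replicate 2 it was 0.0668, within a range of 0.00858 to 0.689 over 13 alternatives. The Rspo1 probe lies on chromosome 4 from 124511330 to 124511389 in mm8.

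Rspo3 read 355 and 376 in mLN and 69.9 and 62.8 in pLN, so the arrays within each node lie close together. It was 5.51-fold higher in mLN (2.46 ± 0.14, limma adjusted p = 0.0155). A second Rspo3 probe read 37.6 and 22.6 in mLN and 7.26 and 14.5 in pLN, with the first pLN array not well above background, and its difference was 1.504 on the log2 scale. With the mean of the probes Rspo3 had 1.98 and an adjusted p of 0.0554, and without mLN replicate 2 an adjusted p of 0.0583, within a range of 0.006 to 0.689 over the alternatives. In mm8 the probe used spans 29194119 to 29195838 of chromosome 10, and the second lies at 29142352 to 29142410 on the same strand.

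Without the filter on dim probes the adjusted p was 0.0999 for Rspo1 and 0.0537 for Rspo3, and with a normexp background it was 0.689 for both. Without pLN replicate 1 it was 0.178 for Rspo1 and 0.107 for Rspo3, and without pLN replicate 2 it was 0.169 and 0.142.

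Rspo4 read 31.1 and 25.2 in mLN and 65.9 and 52.3 in pLN, the reverse order of Rspo1 and Rspo3, with no overlap. It was not called (−1.07 ± 0.20, limma adjusted p = 0.127), although the ratio was −1.08 in experiment 1 and −1.06 in experiment 2. With a normexp background its sign turned, to 0.90. A second Rspo4 probe, well above background only on the first array of each node, did not enter. That probe read 10.9 and 4.64 in mLN and 10.8 and 5.88 in pLN, a difference of −0.16 on the log2 scale. Rspo2 read 43.1 and 20.4 in mLN and 43.6 and 31.0 in pLN, values that overlap (−0.31 ± 0.42, limma adjusted p = 0.822).

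Promoter sequences are shown for the called genes Wnt2b and Rspo1 and, as the R-spondin in the opposite order, for Rspo4, from RefSeq on GRCm38.p6. Each run holds the 250 bases before the annotated start, 5′ to 3′ on the gene's strand, and capitals mark CG dinucleotides. The positions are chr3:104961710-104961959 on the minus strand for Wnt2b, chr4:124986180-124986429 on the plus strand for Rspo1 and chr2:151842677-151842926 on the plus strand for Rspo4.
Wnt2b: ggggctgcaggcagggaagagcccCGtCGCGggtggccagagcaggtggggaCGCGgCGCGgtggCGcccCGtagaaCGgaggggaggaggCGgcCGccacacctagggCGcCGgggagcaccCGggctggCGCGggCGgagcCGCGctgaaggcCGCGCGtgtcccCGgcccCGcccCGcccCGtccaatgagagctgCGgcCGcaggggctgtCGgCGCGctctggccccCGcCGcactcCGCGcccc
Rspo1: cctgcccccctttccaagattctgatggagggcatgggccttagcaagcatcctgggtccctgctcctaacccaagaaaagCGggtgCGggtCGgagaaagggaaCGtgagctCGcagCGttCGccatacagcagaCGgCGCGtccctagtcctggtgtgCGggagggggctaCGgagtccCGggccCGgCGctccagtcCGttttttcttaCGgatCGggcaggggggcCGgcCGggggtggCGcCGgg
Rspo4: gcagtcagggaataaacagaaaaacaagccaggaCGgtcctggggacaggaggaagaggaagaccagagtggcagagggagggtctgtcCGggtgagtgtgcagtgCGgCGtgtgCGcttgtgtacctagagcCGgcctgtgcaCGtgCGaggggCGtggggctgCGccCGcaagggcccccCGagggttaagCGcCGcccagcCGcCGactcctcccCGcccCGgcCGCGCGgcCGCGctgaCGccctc

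The RefSeq table held promoters for 29 of the 43 members, 32 windows in all, and none for Rspo3, Wnt5a or Fzd6. These windows are rich in CG, with a median of 22 CG dinucleotides per 250 bases (4 to 48), beside 10 over 21263 windows of protein-coding genes. Wnt2b held 36, Rspo1 22 and Rspo4 24, so the gene in the opposite order is not set apart by this count. Motifs were searched on both strands, with overlapping matches counted. The GC box GGGCGG was found in 23 of 32 member windows and in 42.6% of those of protein-coding genes. Wnt2b held 3 of them, Rspo4 held 2 and Rspo1 held 0. A TCF/LEF word, CTTTG followed by AA, AT, TA or TT, was found in 4 of 32 member windows and in 13.2% of those of protein-coding genes, and in none of the 3 windows shown.

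The Frizzled receptors were all well above background on all 4 arrays and none of the 10 was called. At an unadjusted p below 0.05 in limma was 1 of the 10, beside 3140 of the 21393 genes. Fzd6, a receptor best known for hair and tissue polarity, was the one at least 2-fold apart in both experiments. It read 7738 and 5246 in mLN and 17208 and 12537 in pLN, with both mLN arrays below both pLN arrays. The difference was −1.20 ± 0.28 (limma adjusted p = 0.168, and 0.0664 to 0.689 over the alternatives). Fzd2, Fzd3 and Fzd4, of which Fzd4 is the receptor for norrin in vessels, had both mLN arrays above both pLN arrays. Fzd3 read 47.5 and 63.4 in mLN and 25.2 and 42.2 in pLN (0.75 ± 0.32, limma adjusted p = 0.402), and Fzd4 read 2223 and 2325 in mLN and 1401 and 1956 in pLN (0.46 ± 0.21, limma adjusted p = 0.442). Fzd1 read 6620 to 8360 on the 4 arrays and Fzd7 1441 to 2302, with overlap between nodes. Leaving out Fzd6, the 9 receptors had log2 fold changes of −0.51 to 0.75 and adjusted p of 0.36 to 0.95. Where a gene had several probes that entered, they gave the same sign except for Fzd8, at −0.06 and 0.31.

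Of the 8 antagonists tested none was called. At an unadjusted p below 0.05 in limma were 5 of the 8, beside 3140 of the 21393 genes. Of these 5, Dkk2 alone was lower in mLN. Frzb, a secreted frizzled-related protein first known from cartilage, read 421 and 666 in mLN and 91.3 and 198 in pLN. All mLN values lie above all pLN values, and the fold was 3.94 (1.98 ± 0.46, limma adjusted p = 0.168). Experiment 2 read higher than experiment 1 in both nodes, and blocking on the experiment made Frzb a call (adjusted p = 0.0469), within a range of 0.0469 to 0.689 over the alternatives. Its value was 1.42 without pLN replicate 1 and 2.54 without pLN replicate 2.

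Sfrp1, which binds Wnts and is common in fibroblasts, read 717 and 724 in mLN and 379 and 424 in pLN (0.85 ± 0.14, limma adjusted p = 0.108). Sfrp4 read 3430 and 2128 in mLN and 1420 and 1473 in pLN (0.90 ± 0.27, limma adjusted p = 0.25). Wif1, which binds Wnts outside the cell, read 168 and 263 in mLN and 108 and 68.3 in pLN (1.29 ± 0.34, limma adjusted p = 0.206). In these genes the nodes did not overlap, with mLN the higher. Dkk2 had the reverse order, at 966 and 761 in mLN and 2120 and 1454 in pLN (−1.03 ± 0.25, limma adjusted p = 0.187).

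The arrays overlapped for Sfrp2, Sfrp5 and Dkk3. Sfrp2 read 7464 and 4200 in mLN and 4373 and 7435 in pLN, so that its ratio was 0.77 in experiment 1 and −0.82 in experiment 2. Dkk3, a Dickkopf relative that is not known to act like the others on Lrp coreceptors, read 1140 and 1141 in mLN and 1161 and 843 in pLN. A missed threshold with 2 arrays per node does not show equal levels for any of these genes.

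**Figure D2:**
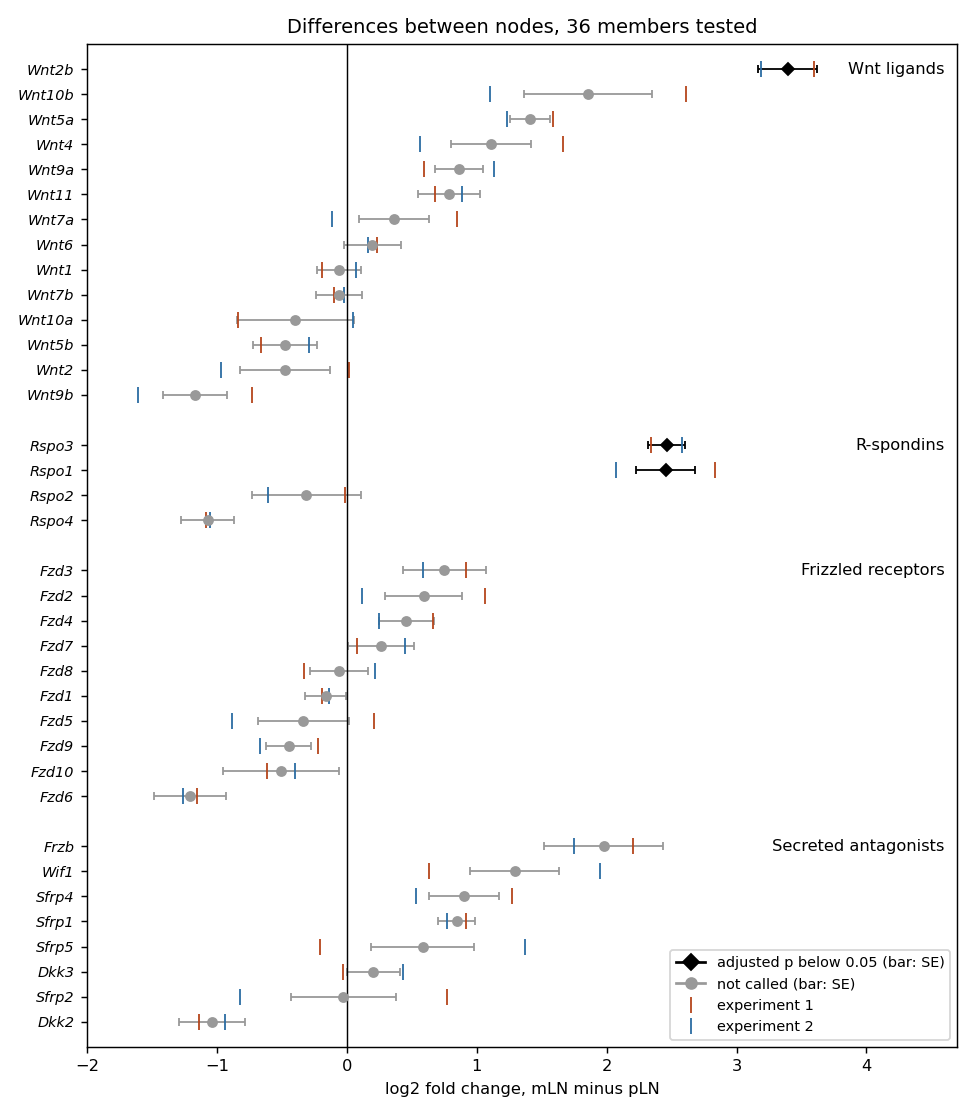
Log2 fold change, mLN minus pLN, of the 36 members tested, by class, with bars for the standard error and ticks for the ratio in experiment 1 (red) and experiment 2 (blue). Black diamonds are the 3 called genes, Wnt2b at 3.39, Rspo3 at 2.46 and Rspo1 at 2.45. Grey points were not called, and the Frizzleds spread over both sides of 0 from −1.20 to 0.75.

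Several Wnt genes lie next to each other in the genome, an arrangement the choice of members did not use. In the RefSeq gene order 4 pairs of members had no protein-coding gene between them: Wnt6 with Wnt10a, Wnt3a with Wnt9a, Wnt9b with Wnt3, and Wnt10b with Wnt1. Wnt10b had 1.85 while Wnt1, its neighbour on chromosome 15, had −0.06. Wnt6 and Wnt10a, on chromosome 1, had 0.20 and −0.40. In the pairs on chromosome 11, Wnt9a (0.86) and Wnt9b (−1.17) were tested and Wnt3a and Wnt3 did not enter.

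The other genes of the pathway were read from 5 lists, chosen by role. Of 75 genes, 73 were matched to a probe and 71 were tested. None was called in either direction (limma, with 1.05% of all genes called), and 1 was called with the experiment as a block. At an unadjusted p below 0.05 in limma were 15 of the 71, beside 3140 of the 21393 genes. The median log2 fold change of the 71 was 0.01. Past 2-fold in experiments 1 and 2 alike were Gpc3 and Ccn4 with mLN higher and Sostdc1 and Ccn5 with mLN lower, 2.82% of the list each way, beside 2.75% of all genes with mLN higher and 1.71% with mLN lower.

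Among coreceptors and R-spondin receptors (median 0.16 over 12 genes), Gpc3, a cell surface glypican that binds Wnts, read 11663 and 8553 in mLN and 4178 and 3493 in pLN (1.39 ± 0.22, limma adjusted p = 0.101). Lgr5, a receptor for R-spondins that marks gut stem cells, read 16.03 and 15.5 in mLN and 13.95 and 7.65 in pLN, the last not well above background (limma adjusted p = 0.501), and Lgr4, its widely expressed relative, read 878 and 683 in mLN and 684 and 607 in pLN (limma adjusted p = 0.628). Both were chosen for mention after their values were seen. Of 10 genes of receptor turnover and other secreted modulators tested (median −0.42), 7 had both mLN arrays below both pLN arrays (70%, against 25% of all genes tested). Notum, 1 of the 7, entered through pLN alone, so its place among them follows from the filter. Kremen1, also among the 7, had a second probe of opposite sign, at 0.12 on the log2 scale. Over the alternatives Kremen1 reached 0.30 and Sost, another of the 7, reached 0.47. Sostdc1, a secreted antagonist of Wnt and BMP signals, read 1057 and 1264 in mLN and 3147 and 4969 in pLN (−1.77 ± 0.27, limma adjusted p = 0.0954). Notum, an enzyme that removes the lipid from Wnts, read 7.21 and 8.20 in mLN, not well above background on either array, and 17.9 and 12.9 in pLN. It was not called.

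Wls, which carries Wnts to the cell surface, likewise chosen after its values were seen, read 13079 and 13210 in mLN and 13110 and 12984 in pLN (0.01 ± 0.13, limma adjusted p = 0.985), and its second probe gave −0.22. The intracellular transducers had a median of −0.03 over 33 genes. Lef1, a transcription factor that beta-catenin binds, read 238 and 255 in mLN and 152 and 119 in pLN (0.87 ± 0.18, limma adjusted p = 0.145), and Dvl3, a Dishevelled protein gene, read 55.0 and 66.9 against 37.4 and 35.7 (0.73 ± 0.16, limma adjusted p = 0.163).

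Transcripts known as targets of beta-catenin went both ways (median 0.26 over 12 genes), with no call. Ccn4, also named Wisp1, read 949 and 1450 in mLN and 251 and 426 in pLN (1.84 ± 0.36, limma adjusted p = 0.132, or 0.0352 when blocked on the experiment, within a range of 0.0352 to 0.689 over the alternatives). Tnfrsf19 read 761 and 1170 in mLN and 397 and 419 in pLN (1.21 ± 0.25, limma adjusted p = 0.141). Axin2, a feedback inhibitor often used as a readout of the pathway and chosen for mention here after its value was seen, read 130 and 147 in mLN and 79.5 and 91.4 in pLN (0.70 ± 0.16, limma adjusted p = 0.168). Sp5 had the reverse order, at 59.9 and 51.95 in mLN and 110 and 105 in pLN (−0.94 ± 0.15 on the log2 scale, limma adjusted p = 0.103, but 0.69 with a normexp background), and so had Ccn5, also named Wisp2 and likewise chosen after its value was seen, at 454 and 221 in mLN and 1103 and 786 in pLN (−1.56 ± 0.41, limma adjusted p = 0.206).

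**Figure D3:**
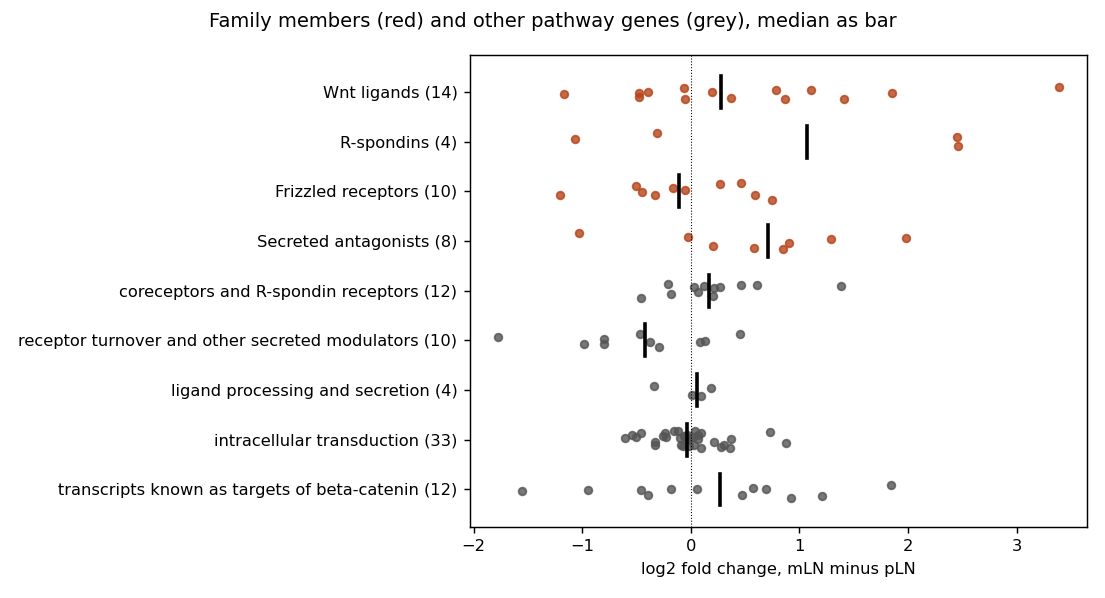
Log2 fold change, mLN minus pLN, of each gene tested, in rows for the 4 member classes (red) and 5 lists of other pathway genes (grey), with the number of genes in brackets and a black bar at the median. The red rows hold the 3 values above 2, and the 33 intracellular transducers lie around −0.03.

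Markers of some cell types moved with the node as well, and their part in the differences of the Wnt genes was not tested. Of the 9 markers of fibroblastic reticular cells none was called, with a median log2 fold change of 0.03 and overlap between nodes for 7. No marker was called for lymphatic endothelium, leukocytes, smooth muscle and pericytes, or adipocytes. For Schwann cells and nerve 1 of 5 was called, higher in mLN. Of 10 markers of mesothelium, the cell layer that lines the abdominal cavity, 8 were called higher in mLN, where 0.776% of all genes tested were. Of the called markers, Lrrn4, Upk1b, Wt1 and Bnc1 entered through mLN alone, so the filter favoured this direction for them. The other 6 of the 10 were well above background on both pLN arrays. Upk3b, a uroplakin gene, read 9277 and 8273 in mLN and 10.6 and 11.7 in pLN, a 786-fold difference (limma adjusted p = 0.00265). Msln, which encodes mesothelin, read 10692 and 6624 in mLN and 29.9 and 10.7 in pLN, a 470-fold difference (limma adjusted p = 0.0159). Both were well above background on the pLN arrays too. The defining markers Wt1 and Bnc1 read 685 and 586, and 589 and 502, in mLN and were not well above background in pLN. Cldn15, a tight junction gene among the markers, read 8164 and 5797 in mLN and 1078 and 1099 in pLN. The 2 markers not called were Gpm6a, at 19349 to 23381 on all 4 arrays, and Krt19, at 10588 and 7209 in mLN and 3364 and 4851 in pLN. They make up most of the summed signal of the 10 markers in pLN, which was 26314 and 27057 there and 72542 and 55442 in mLN. The summed signal of 8 pancreatic acinar markers was 913110 and 331520 in mLN and 20904 and 1150 in pLN, and differed between arrays of the same node. Of 8 markers of surface and glandular epithelium, 2 were called lower in mLN, where 0.276% of all genes tested were. Both mLN arrays lay below both pLN arrays for 6 of the 8, and of these Elf5 entered through pLN alone. Krt8 and Krt14 went the other way, at 0.22 and 0.54 on the log2 scale, with overlap between nodes and no call. Csn3, a milk casein gene, read 36.4 and 31.1 in mLN and 2316 and 7091 in pLN (limma adjusted p = 0.0252), and Wfdc2 read 155 and 123 in mLN and 2615 and 4086 in pLN (limma adjusted p = 0.0155). The list summed to 4382 and 3478 in mLN, of which Krt8, not called, made up 3577 and 2644, and to 8849 and 15550 in pLN. For blood endothelium the sums were 64443 and 57747 in mLN and 90877 and 84033 in pLN. All 5 genes were lower on both mLN arrays, where 25% of all genes were, and none was called.

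**Figure D4:**
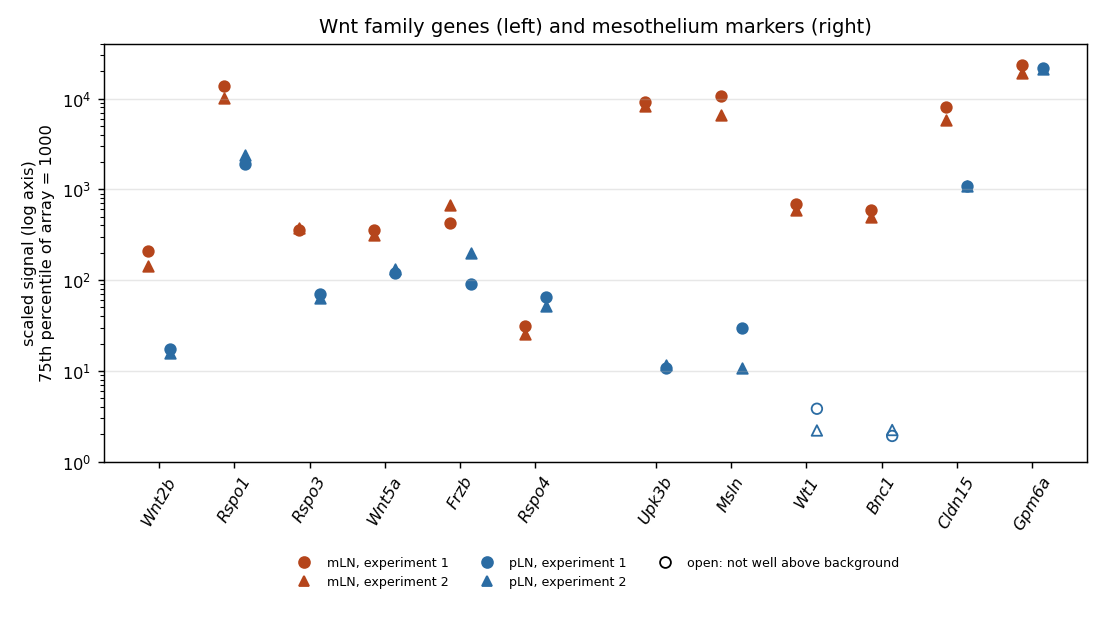
Scaled signal on the 4 arrays, on a log axis, of 6 Wnt family genes (left) and 6 mesothelium markers (right), with mLN in red, pLN in blue, and open symbols for signals not well above background. Upk3b, Msln, Wt1 and Bnc1 lie far lower in pLN, Wt1 and Bnc1 as open symbols, and Gpm6a lies level. Of the Wnt family genes shown, Rspo4 has the nodes in the reverse order of the others. Heights are to be compared within a gene.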

How the data were processed

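Gene expression was measured in 4 samples, 2 of mLN and 2 of pLN, on 1-colour Agilent arrays that share 1 slide. Per the file headers, Agilent Feature Extraction 9.5.3.1 gave the deposited intensity values and subtracted background and spatial trends. Other deposited columns, flags of 0 or 1, mark spots well above background, saturated or outlying, per the file headers. Per the labels' protocols, nodes were digested for 30 minutes at 37 degrees with 1 mg/ml collagenase, and 80 ng of RNA per sample was amplified and labelled. A deposited value table, which matched the scanner signals times 1 factor per array, served only as an alternative.

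Control and outlier spots were left out, spots of a probe averaged, log2 taken and each array's 75th percentile subtracted. Of 41174 probes, 31894 entered, each well above background on every array of mLN, of pLN or of both nodes. A gene took its entering probe with the highest mean. Names came from the RefSeq table on GRCm38.p6 (33102 probes) or stayed as in the files (8072). No probe of the members was saturated. limma 3.58.1 in R 4.3.3 (lmFit, eBayes) compared the nodes without a block. The test was tested on simulated data, in 10 runs. It recovered 0.4% of 2-fold, 56.2% of 4-fold and 90.6% of 16-fold differences, with 4.8 false calls on average. The simulated noise was normal, independent between genes and arrays, with variances drawn from the prior that limma fitted. It held no effect shared by an experiment, so the simulation cannot show how many calls on the real arrays are false. An exact permutation of 2 against 2 arrays cannot go below 0.333. The titles carry the experiment numbers 1 and 2 for both nodes and do not say what arrays of the same number shared. The deviations of experiment 2 from experiment 1 correlated between nodes with r = 0.246 across genes, which are not independent replicates, and the block is given where it changed a call.

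The members, lists, tests and alternatives were chosen with earlier results of these data known. Per-array values are given for members that were called or at least 2-fold apart the same way in both experiments and for the next 6 by p, and for the 8 pathway genes with the smallest p. Other genes described in the text were chosen after their values were seen. Probe positions are given for Wnt2b, Rspo1 and Rspo3 alone. Tiki1 and Tiki2 were matched to no probe. The number of arrays limits the precision. The depth of an array is its signal over background.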

Additional observations from a re-analysis of the deposited data

How the results depend on the processing

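The genes called in the series numbered 225, and 0 with a normexp background, 354 with median scaling, 44 without a filter on dim probes and 440 with an intensity trend in the variance. With 1 array left out they ranged from 0 to 240, with 0 for either pLN array. Members called numbered 3, and 0 with normexp or without the filter, 0 to 2 with 1 array left out, and 2 to 4 in the other settings, the replicate block included (3, with Frzb in place of Rspo1). Other pathway genes called numbered 0, 1 with the replicate block (Ccn4) and 2 with the intensity trend (Gpc3 and Sostdc1). At an unadjusted p below 0.05 the series had 3140 genes, and 569 with normexp.

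Normexp raised the median of all genes by 0.41 on the log2 scale. It turned the sign of 9 of the 36 members tested: Rspo4 (to 0.90), Wnt9b (to 0.20), Rspo2 (to 1.52), Fzd5, Fzd8, Fzd9, Wnt1, Wnt7b and Wnt10a. Among the other pathway genes given by array for having the smallest p, normexp turned Sp5 (to 0.69) and Notum (to 1.59), and Notum was not above background in mLN. The cause was not tested. Wls, also given by array, had 0.01 and ranged from −0.33 to 0.02 over the alternatives, so its sign was not stable either. Of the 36 members, 23 kept their sign under all 13 alternatives, and Wnt2b, Rspo1 and Rspo3 were among them. With 1 array left out, Rspo1 ranged from 2.24 to 2.67 and Rspo3 from 2.38 to 2.54. The other 13 members changed sign in at least 1 alternative, 10 of them in an alternative other than normexp. Rspo4, Wnt9b and Fzd9 changed sign with normexp alone.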
